A study of Mus musculus with 4 samples.

Results

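Collagen genes were described in 2 mouse skin melanocyte lines, a non-pigmented and a pigmented one. The members were the genes whose symbol consists of Col, a number, the letter a and a further number, taken from probe sets that the platform annotation gives exactly one gene symbol. This gave 42 genes with 82 probe sets, of 18193 genes on the array. Both lines have a Balb/c background and were grown with the phorbol ester TPA (tetradecanoyl phorbol acetate), fetal serum and 2-mercaptoethanol. The non-pigmented line (n = 2 arrays) carries a homozygous point mutation of Tyr, which encodes the melanin-forming enzyme tyrosinase. The pigmented line (n = 2 arrays) is labelled wild type with that mutation corrected. Whether the corrected line is 1 clone, and whether the arrays of a line came from separate cultures, is not given in the sources used here, so every p-value reflects the spread among these arrays alone, and that spread may be technical.

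Collagens are secreted proteins whose alpha chains wind into a triple helix built on a glycine-rich repeat. Fibrillar collagens form the banded fibrils of dermis, bone and cartilage, and FACIT collagens (fibril-associated collagens with interrupted triple helices) sit on the surface of those fibrils. Network-forming collagens include type IV, the sheet of the basement membrane on which epidermal melanocytes rest, and type VI collagen forms beaded filaments. A chain is secreted as part of a trimer, either of like chains or with partner chains. Where partners are known, the members are given below with chains they assemble with.

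The values are deposited probe set signals on a linear scale, and differences are given as log2(signal + 16), non-pigmented minus pigmented, with standard errors from limma. As a check of the labels, which is partial because the mutation changes a base and not necessarily the amount of RNA, Tyr had signals of 214 and 67.2 in the non-pigmented arrays, against 17306 and 11698 in the pigmented arrays. The arrays also differed in RNA integrity within each line. The 3′ to 5′ ratio of the Gapdh control probe sets was 0.903 in the first non-pigmented and 0.864 in the first pigmented array, called the intact pair, and 20.2 in the second non-pigmented and 16.8 in the second pigmented array, called the low 5′ pair. The median signal of an array lay between 99.7 and 111 in the non-pigmented and between 126 and 130 in the pigmented line, and the number of arrays limits the precision of every value. In such bulk RNA fewer cells of a type and less RNA per cell cannot be told apart.

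The non-pigmented line had higher signals for the fibrillar genes Col2a1, Col11a1 and Col27a1, for Col9a1, for the type VI genes Col6a1 and Col6a3 and for Col4a1 of type IV, while the pigmented line had higher signals for Col4a4. A gene was tested if its mean log2 value over the 4 arrays reached 6.44 (a signal of 70.7), which is the 40th percentile over probe sets, and 29 of the 42 collagen genes did, while 13 were under it and are called dim. At an adjusted p under 0.05 by limma, 7 collagen genes were higher and 1 was lower in the non-pigmented line. That is 24.1% of the tested members called higher, beside 2.03% of all 12558 genes tested, and both directions together gave 27.6% beside 3.36%. The single member called lower stands beside 1.33% of all genes. The other 21 tested members did not pass. The difference was above 0 in 20 of the 29 tested members, beside 45.7% of all tested genes. With no filter, which covers all 42 members, the same 8 were called, beside 1.65% of all 18193 genes. With every probe set tested on its own, 12 of 45 collagen probe sets were called (26.7%), beside 1.49% of all 27022 probe sets, and they belonged to 9 genes. The median difference was 0.90 over the 29 tested members and -0.07 over all tested genes, and it was 0.47 over all 42 members and -0.11 over all genes without the filter.

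The groups did not overlap in 20 of the 29 tested members, with both non-pigmented arrays above in 15 and below in 5. Over all tested genes 19.5% had both non-pigmented arrays above and 24.4% had both below. In 25 of 29 members the difference had the same direction in the intact and in the low 5′ pair, against 69.4% of all tested genes. In 21 of 29 it had the same direction within both dates given in the titles, against 50.8% of all tested genes. Blocking on the integrity pair raised the number of collagen genes called to 13, beside 7.04% of all genes, with 11 higher (4.32% of all genes) and 2 lower (2.72% of all genes). In 3 of the 8 called members the mean of the dimmer line lay under the filter value, so the sizes of these differences depend on the pseudocount.

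**Figure D1:**
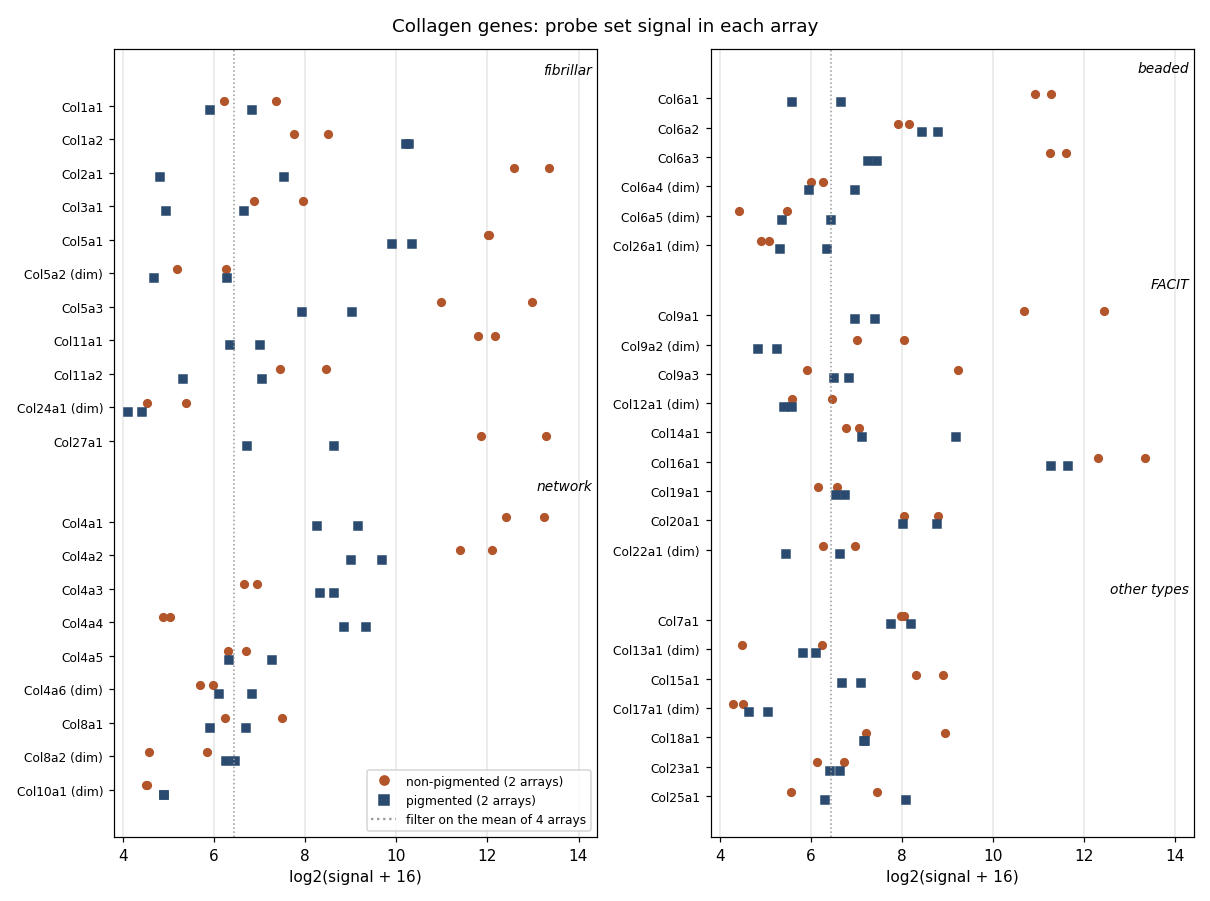
Signal of the probe set that represents each of the 42 collagen genes, as log2(signal + 16), in the 2 non-pigmented (circles) and 2 pigmented (squares) arrays, by collagen type. The dotted line is the filter at 6.44, which was applied to the mean of the 4 arrays and left out the 13 genes marked dim.

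Of 11 fibrillar genes, 9 were tested, 3 were higher in the non-pigmented line, 0 were lower and 6 did not pass. That is 33.3% called higher, beside 2.03% of all genes tested. Each collagen type holds few tested genes, and no type was tested as a set. The median difference of the tested genes was 1.91. Col2a1 (Entrez gene 12824, chr15:97975602-98004724, RefSeq positions on GRCm38.p6) encodes the main fibril collagen of cartilage. Its signal was 10366 and 6147 in the non-pigmented arrays, against 12.1 and 169 in the pigmented arrays. The groups were far apart, and the pigmented arrays themselves differed widely. Col2a1 was represented by 1 probe set, so no second one could be compared. The log2 difference was 6.79 ± 0.90, or 111-fold on this scale, with an adjusted p of 0.0164 by limma. It was 8.53 within the intact pair and 5.06 within the low 5′ pair.

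Col11a1 (Entrez gene 12814, chr3:114030479-114220756) encodes a chain of type XI collagen, which nucleates type II fibrils. It had signals of 4607 and 3510 in the non-pigmented arrays, against 113 and 65.8 in the pigmented arrays. Both non-pigmented arrays were high and the groups lay well apart, with a difference of 5.30 ± 0.46 and an adjusted p of 0.00618 by limma. Its second probe set differed by 6.71, with an adjusted p of 0.0177 when every probe set was tested on its own. Col11a2 encodes a partner chain of type XI. Its signals were 158 and 333 in the non-pigmented arrays, against 24.0 and 116 in the pigmented arrays, and the difference of 1.76 ± 0.71 did not pass (adjusted p of 0.346).

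Col27a1 (Entrez gene 373864, chr4:63214009-63334991), a fibrillar collagen of cartilage, had signals of 3704 and 9943 in the non-pigmented arrays, against 89.2 and 378 in the pigmented arrays. Both its probe sets were higher in the non-pigmented line, by 4.90 and 5.10. The first of these had a standard error of 0.79 and an adjusted p of 0.0297, which became 0.0609 without non-pigmented replicate 2. Over the 17 alternatives of processing its adjusted p lay between 0.000864 and 0.0609.

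The type V chains, which set the diameter of type I fibrils, did not pass in the model without a block. Col5a1 had signals of 4120 and 4206 in the non-pigmented arrays, against 1278 and 940 in the pigmented arrays. Its difference was 1.91 ± 0.40, with adjusted p-values of 0.0717 without a block and 0.0223 with the integrity pair as one, and it also passed after median centring (0.0461). Its other probe sets differed by 1.41, without overlap of the groups, and by 0.76, with overlap. Col5a3 had 2007 and 8025 in the non-pigmented arrays, against 227 and 509 in the pigmented arrays. Its difference was 3.50 ± 0.76, with adjusted p-values of 0.0781 without a block and 0.00782 with the integrity pair as one. Without non-pigmented replicate 1 it was 0.0238, and without pigmented replicate 2 it was 0.0145. The second probe set of Col5a3 was under the filter, unlike the first, and differed by -0.14. Col5a2, which encodes the usual partner of the Col5a1 chain, was under the filter, with signals of 61.0 and 20.6 in the non-pigmented arrays, against 62.0 and 9.56 in the pigmented arrays.

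Type I collagen, the main collagen of dermis, is made of a Col1a1 and a Col1a2 chain in a fixed ratio, and the genes of these partners differed in their values. Col1a2 had signals of 199.9 and 348 in the non-pigmented arrays, against 1222 and 1176 in the pigmented arrays. The pigmented arrays were both higher, with a difference of -2.11 ± 0.46 and adjusted p-values by limma of 0.0766 without a block and 0.0308 with the integrity pair as one. The other probe sets of Col1a2 differed by -3.99 and -2.97, and the -3.99 probe set had an adjusted p of 0.0252 when every probe set was tested on its own. Col1a1 had 148 and 58.1 in the non-pigmented arrays, against 98.6 and 44.0 in the pigmented arrays, with a difference of 0.41 ± 0.60 that did not pass (adjusted p of 0.846). Its second probe set was under the filter and differed by 1.27. Col3a1, a fibrillar collagen of elastic tissues, had 102 and 231 in the non-pigmented arrays, against 85.1 and 14.7 in the pigmented arrays. Its difference of 1.61 ± 0.72 did not pass, and was 0.22 within the intact and 3.01 within the low 5′ pair. Col24a1 was dim.

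**Figure D2:**
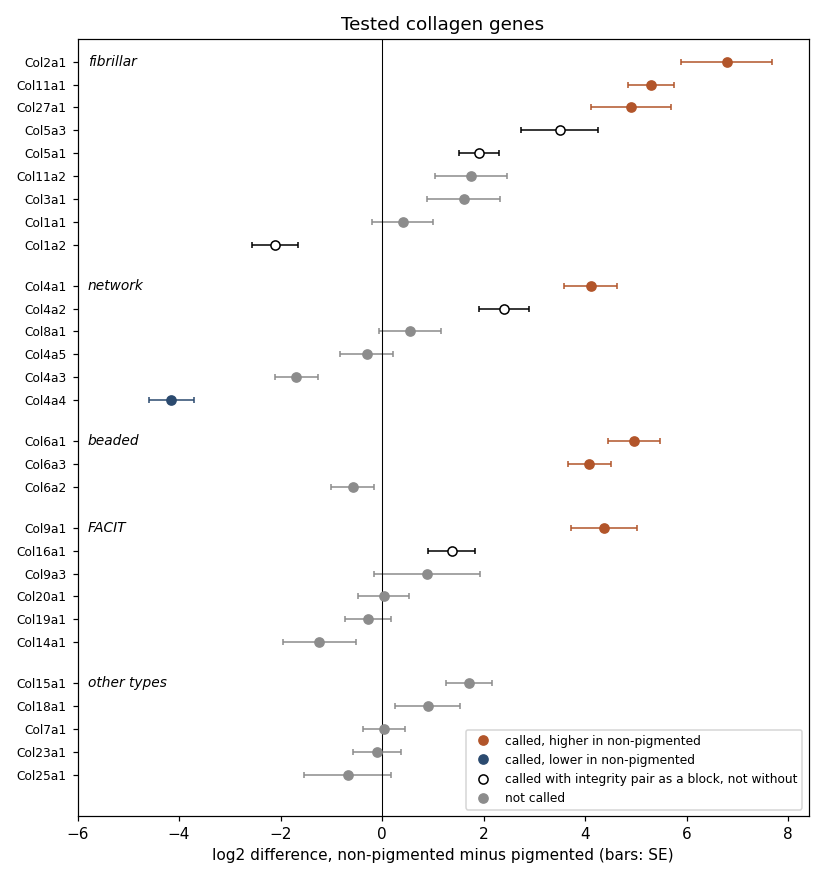
Difference of each of the 29 tested collagen genes in log2(signal + 16), non-pigmented minus pigmented, with standard errors from limma, by collagen type. Col2a1 lies at 6.79 and Col4a4 at -4.15, and open circles mark 5 genes that passed with the RNA integrity pair as a block and not without.

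Of 9 network-forming genes 6 were tested, with a median difference of 0.13. Of these 1 was higher and 1 was lower, beside 2.03% and 1.33% of all genes, and 4 did not pass. The type IV genes lie in head-to-head pairs, Col4a1 with Col4a2 and Col4a3 with Col4a4. The differences were 4.11 and 2.40 in the first pair and -1.69 and -4.15 in the second, and Col4a2 and Col4a3 did not pass. Col4a1 and Col4a2 encode the chains of the common basement membrane trimer. Col4a3 and Col4a4 encode minor chains that assemble with the Col4a5 chain, as in the kidney glomerulus.

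Col4a1 (Entrez gene 12826, chr8:11198423-11312889) had signals of 5428 and 9614 in the non-pigmented arrays, against 559 and 290 in the pigmented arrays. All values of the non-pigmented line lay above those of the pigmented line, by a difference of 4.11 ± 0.52 (adjusted p of 0.0148). The adjusted p was 0.0526 without non-pigmented replicate 2, and it lay between 0.0013 and 0.0526 over all 17 alternatives. The second probe set differed by 3.49. Col4a2 (chr8:11312805-11449287) had 2692 and 4347 in the non-pigmented arrays, against 811 and 494 in the pigmented arrays. Its difference of 2.40 ± 0.49 had an adjusted p of 0.0623 without and of 0.0327 with the integrity block.

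Col4a4 (Entrez gene 12829, chr1:82448419-82587034) had signals of 16.7 and 13.2 in the non-pigmented arrays, against 448 and 633 in the pigmented arrays. It was the one collagen gene called lower in the non-pigmented line, by a difference of -4.15 ± 0.45 (adjusted p of 0.00863). A second probe set differed by -3.31, with an adjusted p of 0.0406 when every probe set was tested on its own, and the third was under the filter (-0.86). Col4a3 (chr1:82586921-82722059) had 84.2 and 106 in the non-pigmented arrays, against 378 and 307 in the pigmented arrays. The groups did not overlap, but the difference of -1.69 ± 0.42 did not pass (adjusted p of 0.119). Its other probe set, under the filter, read 3.13 and 5.84 in the non-pigmented arrays, against 460 and 214 in the pigmented arrays, a difference of -4.02. With the mean of both probe sets in place of the brighter one, Col4a3 had a difference of -2.85 and an adjusted p of 0.0267, the one of its 16 alternatives in which it passed.

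Col4a5 and Col4a6 lie head to head on the X chromosome. Col4a5 differed by -0.30 ± 0.52 and did not pass, with signals of 87.6 and 63.2 in the non-pigmented arrays, against 138 and 64.5 in the pigmented arrays. Col4a6 was dim, as were Col8a2 and Col10a1. Col8a1, a short-chain network collagen of vessel walls and the cornea, differed by 0.55 ± 0.61 and did not pass.

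The promoter windows of Col4a1, Col4a2 and Col4a4 are shown because the genes of a type IV pair share their start region. No window was held for Col4a3, and those of Col4a5 and Col4a6 are not shown. Each is a RefSeq window of 300 bases on GRCm38.p6, with 250 bases before the start site of the window and 50 after. For Col4a1 and Col4a4 that start site (11312826 and 82586849) lies inside the gene coordinates given above, so some bases before it belong to the annotated gene. The start sites of the Col4a1 window (chr8:11312777-11313076, minus strand) and the Col4a2 window (chr8:11312555-11312854, plus strand) lie 21 bases apart. The annotated Col4a1 and Col4a2 genes overlap by 85 bases. Capitals mark the 78 bases that these 2 windows share, read from opposite strands. For Col4a4 (chr1:82586800-82587099, minus strand) capitals mark the bases that lie within the annotated Col4a3 gene, and the annotated genes overlap by 114 bases.
Col4a1: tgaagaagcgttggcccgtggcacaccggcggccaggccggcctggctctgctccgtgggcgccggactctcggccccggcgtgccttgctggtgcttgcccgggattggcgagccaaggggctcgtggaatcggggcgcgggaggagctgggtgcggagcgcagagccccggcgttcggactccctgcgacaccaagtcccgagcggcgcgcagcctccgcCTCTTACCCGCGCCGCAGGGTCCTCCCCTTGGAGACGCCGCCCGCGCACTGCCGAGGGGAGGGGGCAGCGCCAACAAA
Col4a2: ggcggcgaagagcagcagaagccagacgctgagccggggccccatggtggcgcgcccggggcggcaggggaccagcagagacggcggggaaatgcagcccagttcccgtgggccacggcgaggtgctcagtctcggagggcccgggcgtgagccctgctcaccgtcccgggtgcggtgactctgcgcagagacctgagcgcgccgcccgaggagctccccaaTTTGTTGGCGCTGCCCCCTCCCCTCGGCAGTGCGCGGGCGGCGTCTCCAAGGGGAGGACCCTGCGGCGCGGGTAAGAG
Col4a4: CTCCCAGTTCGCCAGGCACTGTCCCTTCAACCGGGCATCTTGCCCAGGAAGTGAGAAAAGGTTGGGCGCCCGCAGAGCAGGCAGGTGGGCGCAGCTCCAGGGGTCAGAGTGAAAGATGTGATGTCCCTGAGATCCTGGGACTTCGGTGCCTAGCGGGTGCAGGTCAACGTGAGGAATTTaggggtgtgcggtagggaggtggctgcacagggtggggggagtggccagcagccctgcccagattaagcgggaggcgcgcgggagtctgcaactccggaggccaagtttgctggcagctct

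Windows were held for 33 of the 42 collagen genes (36 windows). Both strands were searched for the TATA box (TATAAA), the CCAAT box (CCAAT), the GC box bound by Sp1 (GGGCGG) and a motif of Sox factors (AACAAT), and matches of different motifs may overlap. GGGCGG stood in 22 of the 36 windows (61.1%), against 35.7% of all 32851 windows of this length, which include those of non-coding genes. CCAAT stood in 36.1%, against 37.4% of all windows, and TATAAA in 13.9%, against 13.6%. AACAAT stood in 2.78%, against 10.7%. The Col4a2 window held 3 matches of GGGCGG and the Col4a1 window 1, each held 1 match of CCAAT, and the Col4a4 window held none of the motifs.

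The windows of Col11a1 (chr3:114030290-114030589, plus strand) and Col1a2 (chr6:4505368-4505667, plus strand) are shown as fibrillar genes with differences of opposite sign. Capitals mark matches of the motifs on either strand. Both windows hold 2 matches of GGGCGG, with 1 match of CCAAT in Col11a1 and 2 in Col1a2, and neither window holds TATAAA or AACAAT.
Col11a1: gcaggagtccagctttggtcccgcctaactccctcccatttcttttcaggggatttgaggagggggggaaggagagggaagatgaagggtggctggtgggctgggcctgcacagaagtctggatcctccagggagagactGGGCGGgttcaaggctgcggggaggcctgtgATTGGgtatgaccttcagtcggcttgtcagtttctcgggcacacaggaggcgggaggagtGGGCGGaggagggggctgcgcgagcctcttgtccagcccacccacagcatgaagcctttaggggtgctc
Col1a2: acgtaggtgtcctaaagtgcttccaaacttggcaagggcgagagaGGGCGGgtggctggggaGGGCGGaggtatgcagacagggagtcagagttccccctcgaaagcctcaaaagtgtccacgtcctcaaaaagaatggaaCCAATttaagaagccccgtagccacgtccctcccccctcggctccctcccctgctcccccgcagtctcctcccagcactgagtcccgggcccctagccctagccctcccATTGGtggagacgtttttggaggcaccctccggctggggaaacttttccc

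Of 6 genes of beaded filaments, 3 were tested, and 2 were higher in the non-pigmented line, beside 2.03% of all genes. Type VI collagen is assembled from a Col6a1, a Col6a2 and a further chain, most often Col6a3. Col6a1 (Entrez gene 12833, chr10:76708792-76726044) had signals of 1909 and 2470 in the non-pigmented arrays, against 32.2 and 84.9 in the pigmented arrays. The difference was 4.97 ± 0.51, with an adjusted p of 0.0082. Col6a3 (Entrez gene 12835, chr1:90766860-90844001) had 2430 and 3098 in the non-pigmented arrays, against 138 and 158 in the pigmented arrays. Its replicates lay close together in both lines, and the difference was 4.08 ± 0.42 with an adjusted p of 0.0082. Col6a1 and Col6a3 were each represented by 1 probe set.

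Col6a2 lies on chromosome 10, as does Col6a1, and did not pass. Its brighter probe set read 225 and 269 in the non-pigmented arrays, against 426 and 332 in the pigmented arrays, a difference of -0.58 ± 0.42 (adjusted p of 0.646). That probe set is of a kind whose probes can match other sequences, and the other probe set had the opposite direction, with a difference of 0.46 and an adjusted p of 0.813 when every probe set was tested on its own. The difference between the type VI partners was not tested. Col6a4, Col6a5 and Col26a1 were dim.

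**Figure D3:**
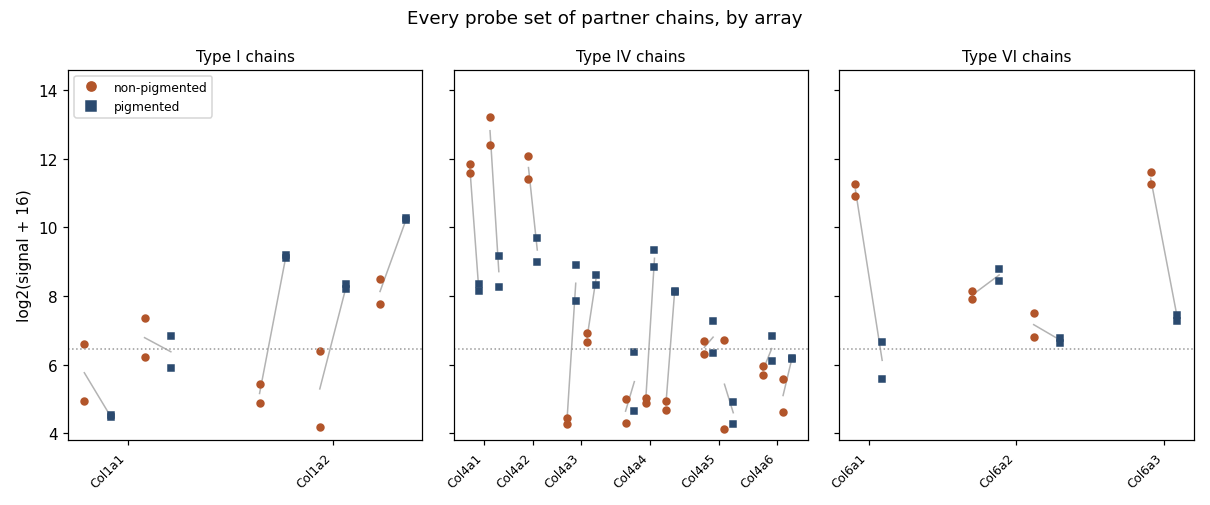
Signal of every probe set of the type I, IV and VI chains as log2(signal + 16), with non-pigmented arrays as circles on the left and pigmented arrays as squares on the right of each pair, and a line joining the group means. Col4a1 and Col4a2 slope down from the non-pigmented to the pigmented side, Col1a2 and the probe sets of Col4a3 and Col4a4 slope up, and the probe sets of Col6a2 slope in opposite directions.

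Of 9 FACIT genes, 6 were tested, with a median difference of 0.46. In the non-pigmented line 1 was higher, beside 2.03% of all genes. Type IX collagen, which coats type II fibrils in cartilage, is a trimer of Col9a1, Col9a2 and Col9a3 chains. Col9a1 (Entrez gene 12839, chr1:24177589-24252738) had signals of 1633 and 5545 in the non-pigmented arrays, against 154 and 109 in the pigmented arrays. Its difference was 4.37 ± 0.65 with an adjusted p of 0.024, and a second probe set differed by 1.40, with an adjusted p of 0.332 when every probe set was tested on its own.

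Col9a2 was under the filter although its groups did not overlap, with 113 and 246 in the non-pigmented arrays, against 12.8 and 22.2 in the pigmented arrays. Without the filter its difference of 2.47 ± 0.57 had an adjusted p of 0.131. Col9a3 read 43.9 and 587 in the non-pigmented arrays, against 75.2 and 98.8 in the pigmented arrays. The non-pigmented arrays lay on both sides of the pigmented ones, with a difference of -0.61 within the intact and 2.39 within the low 5′ pair, and it did not pass. A second probe set of Col9a3 had 99.2 and 342 in the non-pigmented arrays, against 29.6 and 36.9 in the pigmented arrays, a difference of 2.05 (adjusted p of 0.308) in the test of single probe sets.

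Col16a1, a FACIT of skin and cartilage, had signals of 5019 and 10315 in the non-pigmented arrays, against 2437 and 3177 in the pigmented arrays. Its difference of 1.37 ± 0.46 had an adjusted p of 0.248 without and of 0.045 with the integrity block. Col14a1, found on type I fibrils, read 117 and 93.2 in the non-pigmented arrays, against 568 and 123 in the pigmented arrays. The pigmented arrays differed widely from each other, and the difference of -1.24 ± 0.72 did not pass. Col19a1 (-0.28 ± 0.46) and Col20a1 (0.03 ± 0.50) did not pass, and Col12a1 and Col22a1 were dim.

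Of the 5 tested genes of the remaining types limma called 0, beside 3.36% of all genes in either direction. Of these 5, 1 had an unadjusted p under 0.05, beside 1735 of all 12558 genes tested. Col15a1 and Col18a1 encode collagens of basement membrane zones. Col15a1 had 302 and 460 in the non-pigmented arrays, against 121 and 86.7 in the pigmented arrays, a difference of 1.71 ± 0.45 (adjusted p of 0.14). Col18a1 differed by 0.90 ± 0.64, with 0.04 within the intact and 1.77 within the low 5′ pair. Col7a1, the anchoring fibril collagen under the epidermis, differed by 0.04 ± 0.42. The transmembrane collagen genes Col23a1 (-0.10 ± 0.47, with the sign turned after quantile normalization or median centring) and Col25a1 (-0.68 ± 0.85) did not pass, with Col25a1 at -2.51 within the intact and 1.16 within the low 5′ pair. Col13a1 and Col17a1 were dim.

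**Figure D4:**
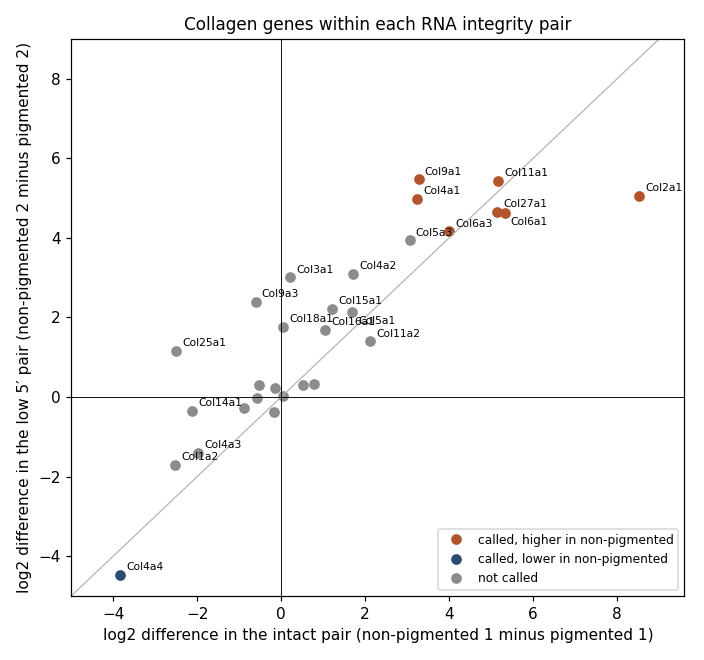
Difference of each tested collagen gene in log2(signal + 16) within the intact pair (horizontal axis, non-pigmented replicate 1 minus pigmented replicate 1) and within the low 5′ pair (vertical axis, non-pigmented replicate 2 minus pigmented replicate 2), with the line of equal values. The 8 called genes have the same sign on both axes, and Col2a1 lies farthest from the line among them, at 8.53 and 5.06.

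Genes that modify, secrete and process procollagen were compared by the same fit. The list held 39 genes, of which 35 had a probe set with one symbol and 26 were tested. Of these 3 were higher in the non-pigmented line, 0 were lower and 23 did not pass, which is 11.5% called higher beside 2.03% of all genes. The median difference was 0.92, beside -0.07 over all genes tested. With the integrity pair as a block 7 were higher and 0 lower, beside 4.32% and 2.72% of all genes under that block.

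Pcolce, an enhancer of procollagen C-propeptide cleavage, had signals of 12142 and 18486 in the non-pigmented arrays, against 51.1 and 201 in the pigmented arrays. The difference was 6.96 ± 0.65, with an adjusted p of 0.00682. Bmp1, the protease that cuts the C-propeptide, had 3498 and 3385 in the non-pigmented arrays, against 508 and 624 in the pigmented arrays. Its difference of 2.58 ± 0.41 had an adjusted p of 0.0286, and between 0.0107 and 0.252 over 17 alternatives. The 0.252 came with the mean of its probe sets in place of the brightest one, where the difference was 1.58. Other losses were 0.0562 with every probe set tested on its own and 0.0894 with the date as a block. Bmp1 also did not pass without non-pigmented replicate 1 or 2, at differences of 2.55 and 2.60. P4ha2, a prolyl 4-hydroxylase subunit that stabilises the helix, differed by 2.23 ± 0.41 with an adjusted p of 0.0438, which became 0.152 with the date as a block. For P4ha2 it was 0.0559 with no filter and 0.0923 with every probe set tested on its own. It also did not pass when any single array was left out, at adjusted p-values of 0.209 and 0.207 without non-pigmented replicates 1 and 2, and 0.0538 and 0.0714 without pigmented replicates 1 and 2.

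Of the other hydroxylases, P4ha1 (1.66 ± 0.42, adjusted p of 0.119) and the lysyl hydroxylase gene Plod2 (2.38 ± 0.48, adjusted p of 0.0632) did not pass, and both did with the integrity block, at 0.0363 and 0.0107. The crosslinking oxidase gene Loxl3 (2.16 ± 0.44) and Sec23a (1.84 ± 0.42), a coat protein of the vesicles that leave the endoplasmic reticulum, also passed with that block and not in the model without a block. Plod2 and Loxl3 passed without a block after median centring or without pigmented replicate 1. Plod1 (1.29 ± 0.51), Plod3 (0.49 ± 0.39) and P4hb (0.58 ± 0.52) did not pass. Serpinh1, the collagen chaperone, had 8658 and 10154 in the non-pigmented arrays, against 6128 and 7307 in the pigmented arrays, with a difference of 0.49 ± 0.32 that did not pass (adjusted p of 0.595). Lox was dim.

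Collagen receptors were represented by 10 of 11 listed genes, and 7 were tested. In the non-pigmented line 3 were higher, 0 were lower and 4 did not pass, which is 42.9% called higher beside 2.03% of all genes. Itga1 encodes the integrin subunit that binds type IV and type I collagen. It had signals of 2721 and 3823 in the non-pigmented arrays, against 159 and 48.6 in the pigmented arrays, a difference of 4.93 ± 0.59 (adjusted p of 0.0117). Itgb1, its partner subunit, was higher in the intact array of either line, with 5332 and 1486 in the non-pigmented arrays, against 3877 and 355 in the pigmented arrays, and did not pass.

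The discoidin domain receptors are tyrosine kinases that bind triple-helical collagen. Ddr2, which prefers fibrillar collagens, had 1129 and 977 in the non-pigmented arrays, against 53.1 and 97.1 in the pigmented arrays, a difference of 3.59 ± 0.45 (adjusted p of 0.0139). Ddr1, which also binds type IV collagen, had 3328 and 7930 in the non-pigmented arrays, against 4021 and 8551 in the pigmented arrays. It differed by -0.19 ± 0.57 and did not pass. Adgrg1, a receptor for type III collagen, did not pass with no filter (adjusted p of 0.0739) or with every probe set tested on its own (0.0778). With the filter and 1 probe set per gene it differed by 2.42 ± 0.40, with an adjusted p of 0.0335. This became 0.0822 with the date as a block, 0.132 without non-pigmented replicate 1, and 0.154 without non-pigmented replicate 2, the highest over 17 alternatives.

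**Figure D5:**
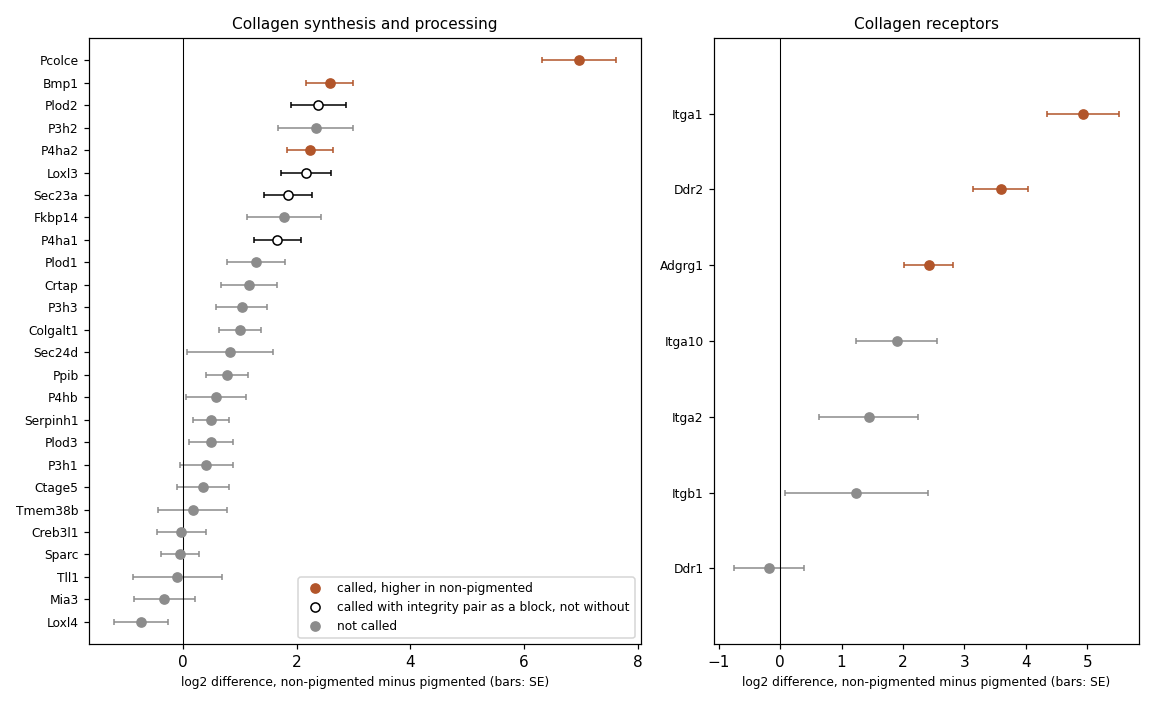
Difference in log2(signal + 16), non-pigmented minus pigmented, with standard errors from limma, of the 26 tested genes of collagen synthesis and processing (left) and the 7 tested collagen receptor genes (right). Pcolce lies at 6.96 and Itga1 at 4.93, and open circles mark genes that passed with the RNA integrity pair as a block and not without.

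Markers of cell types that make collagens were read beside these results. Of 11 fibroblast markers 6 were dim, among them Pdgfra, Pdgfrb and Dcn. Among the 5 tested limma called 0, beside 3.36% of all genes in either direction. Of these 5, 0 had an unadjusted p under 0.05, beside 1735 of all 12558 genes tested. The summed signal of the list was 956 to 1133 in the non-pigmented arrays and 1054 to 3056 in the pigmented arrays, with Fbln1 at 290 and 89.5 in the non-pigmented arrays, against 2419 and 215 in the pigmented arrays. Of 9 chondrocyte markers 5 were dim, namely Matn1, Matn3, Hapln1, Comp and Chad. Among the 4 tested limma called 0, beside the same 3.36% of all genes. Of these 4, 0 had an unadjusted p under 0.05, beside the same 1735 of all 12558 genes tested. The cartilage regulator Sox9 had 103 and 95.5 in the non-pigmented arrays, against 44.5 and 159.95 in the pigmented arrays. The summed signal of the list was 3175 to 7340 in the non-pigmented and 1416 to 3341 in the pigmented arrays, with overlap, and Sox6 gave the largest part of it in each array. Sox6 had 2191 and 6487 in the non-pigmented arrays, against 654 and 2577 in the pigmented arrays. Its probe set is of a kind whose probes can match other sequences. It passed with the integrity pair as a block (1.52, adjusted p of 0.0371) and not without (0.498).

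The marker lists in which limma called most of the tested genes were those of melanocytes and of Schwann cells and progenitors. Of 10 melanocyte markers 7 were lower in the non-pigmented line, beside 1.33% of all genes. The list had a summed signal of 15611 to 26827 there and 129555 to 141095 in the pigmented line. Sox10, the neural crest factor of both lineages, differed by -0.16 ± 0.30 and did not pass. Of 7 tested Schwann cell and progenitor markers 5 were higher in the non-pigmented line, beside 2.03% of all genes. The list summed to a signal of 22714 to 27700 there and 2369 to 3394 in the pigmented line. None of its 8 genes on the array except Ngfr was dim. Of the remaining lists, the keratinocyte gene Krt10 was higher in the non-pigmented line (3.02 ± 0.54, adjusted p of 0.0426 by limma). The keratinocyte list summed to 521 to 610 in the non-pigmented and 468 to 483 in the pigmented arrays. Of the others, 0 of 1 endothelial, 0 of 3 immune and 0 of 2 smooth muscle genes tested were called by limma. Beside 1735 of all 12558 genes tested, unadjusted p-values under 0.05 were found for 0 endothelial, 0 immune and 1 smooth muscle genes. That 1 was the smooth muscle actin gene Acta2, with 3674 and 1647 in the non-pigmented arrays, against 644 and 603 in the pigmented arrays. Its difference of 1.95 ± 0.52 had an adjusted p of 0.139 without a block and 0.0416 with the integrity pair as one. Acta2 gave most of the summed signal of the smooth muscle list in every array. That list summed to 1824 to 4134 in the non-pigmented and 811 to 898 in the pigmented arrays, without overlap. Its genes Tagln (2.66), Myh11 (-1.65) and Cnn1 (-0.48) were dim, with differences of both signs. The part of any of these marker lists in the collagen differences was not tested.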

How the data were processed

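The authors deposited linear intensity values per probe set for 4 arrays, from Affymetrix Expression Console per the submitters' processing notes. Its version and algorithm are not given in the sources used here. The mean of each array, trimmed by 2% on both sides, was 500. The files hold no detection column.

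Of 45101 probe sets, 64 controls were left out. One symbol was given for 34945, several for 932 and none for 9160. By Entrez number 34741 matched RefSeq and 0 symbols changed. The probe set with the highest mean stood for a gene. Genes under the 40th percentile were left out, leaving 12558 of 18193. Tests used log2(signal + 16) and limma 3.58.1 (lmFit and eBayes with trend, in R 4.3.3), adjusted by Benjamini-Hochberg over all tested genes, and the code was tested on simulated data. The titles carry a pair of dates whose meaning is not stated, each shared by 1 array per line. The date and the RNA integrity pair (Gapdh ratio over 3) were alternatives as blocks, beside scaling, filter, pseudocount, probe set rule, variance prior and leaving out each array. The rule for named genes took the collagen genes called with or without the integrity block, the 3 with the highest mean, those with probe sets opposed by at least 1 on the log2 scale, partner chains of called ones, the called processing and receptor genes, a set choice of further ones (P4ha1, P4hb, Plod1, Plod2, Plod3, Serpinh1, Lox, Ddr1, Ddr2 and Itgb1) and Tyr. All other genes were named after their values were seen. Members and lists were chosen with earlier results of these data known. Python 3.11.15 and matplotlib 3.10.9 drew the figures.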

Additional observations from a re-analysis of the deposited data

How the results depend on the processing

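Of the 8 called collagen genes, Col2a1, Col11a1, Col6a1, Col6a3, Col9a1 and Col4a4 passed under every alternative that gave them a value, and Col4a4 had none under the stricter filter or the mean of probe sets. The 3 losses were of Col4a1 (3.70, adjusted p of 0.0526) and Col27a1 (4.19, 0.0609) without non-pigmented replicate 2, and of the brighter Col27a1 probe set (0.0561) with every probe set tested on its own, where more features are tested and the other Col27a1 probe set passed (0.0252). The number of collagen genes called was 13 with the RNA integrity pair as a block, beside 884 of all 12558 genes, against 422 without a block. It was 8 with the date as a block, beside 392 of all genes, and 8 with no filter, beside 301 of all 18193 genes. For genes of collagen synthesis and processing it was 7 with the integrity block and 1 with the date as a block. It was 5 with median centring, beside 452 of all genes, and 2 with no filter. With single probe sets it was 1, beside 402 of all 27022 probe sets. For receptors it was 2 with the date as a block, where Adgrg1 was lost (0.0822). It was also 2 with no filter and with single probe sets. Counts with 1 array left out are not given, because 1 line then holds 1 array. The cause was not tested, except that leaving out an array removes samples. Median centring moved the median difference of all genes by 0.24, to 0.18.

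Among members that did not pass, 9 changed sign in some alternative. With 1 array left out, the difference lay between -0.16 and 0.98 for Col1a1, -0.77 and 0.17 for Col4a5, -0.18 and 0.25 for Col7a1, -0.08 and 1.18 for Col8a1, -0.77 and 2.56 for Col9a3, -0.35 and 0.40 for Col20a1, -0.41 and 0.20 for Col23a1, and -1.62 and 0.27 for Col25a1. Col23a1 was 0.13 with quantile normalization and 0.14 with median centring, and Col6a2 was 0.46 with unique probe sets.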
